A study of Mus musculus with 6 samples.

Results

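Muscle cells fire and relax through potassium channels and voltage-gated sodium channels. The genes of these channels were compared between wild-type C2C12 cells and C2C12 cells without Myod1, the transcription factor that commits cells to skeletal muscle. Members were chosen by symbol alone: a symbol that starts with Kcn, followed by letters and a number, or Scn followed by a number and the letter a or b. Of the 28892 genes in the table, 74 were members, of which 71 are channel subunits and 3 are antisense RNAs named after a channel gene (Kcnab3os, Kcnmb4os1 and Kcnmb4os2). A further 3 symbols that fit the pattern were left out.

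C2C12 is a mouse myoblast line, which the labels trace to satellite cells of the thigh muscle of a female C3H mouse aged 2 months. Both groups, C2C12(WT) and C2C12(Myod1-/-), were cultured for 6 days in a defined serum-free medium, and each had 3 RNA-seq libraries. The knockout was made with CRISPR/Cas9 and lentiviral delivery with puromycin selection, and it is 1 clone, so that the genotype and the clone cannot be told apart. According to the study's description, wild-type cells form myotube-like structures in this medium and knockout cells form floating spheres, so that the genotypes also differ in their form of growth. Whether the libraries of a genotype came from separate cultures is not stated, so that the p-values reflect the spread between these samples only, which may be technical.

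A voltage-gated sodium channel is made of a large pore-forming alpha subunit (Scn symbols ending in a) and a small beta subunit (ending in b). It opens when the membrane depolarizes and carries the upstroke of the action potential. Potassium channels bring the membrane back to rest and hold it there. They comprise the voltage-gated (Kv) families, the ether-a-go-go type families, the inward rectifiers, the leak channels with a tandem pore domain, and the channels opened by intracellular calcium or sodium, and many work together with auxiliary subunits. In adult skeletal muscle the main sodium channel is Nav1.4, the product of Scn4a, and the inward rectifier Kir2.1, the product of Kcnj2, is known for its part in the hyperpolarization that precedes fusion of human myoblasts.

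Levels are FPKM (fragments scaled to the length of the gene and to the mapped fragments of the library). A gene was tested where its mean over the 6 libraries was at least 0.5 FPKM. It is said to have risen or fallen where limma, fitted to log2(FPKM + 0.1) of all 14045 such genes, gave a Benjamini-Hochberg adjusted p under 0.05. All fold changes are C2C12(Myod1-/-) over C2C12(WT) on the log2(FPKM + 0.1) scale, which understates changes of genes near 0. Relative depth of the libraries, read from the spacing of low values, ranged from 1 to 1.13 times that of C2C12(WT) replicate 1, and 98.7% to 98.9% of low values lay within 0.05 of a whole number of steps. Myod1 itself had levels of 17.3, 25.8 and 27.7 FPKM in C2C12(WT), against 0.0614, 0 and 0 FPKM in C2C12(Myod1-/-). All 8 muscle markers fell, against 33.3% of all genes tested. Of the 8, 7 passed the filter only through C2C12(WT) and so had to be lower. The summed level of the 8 went from 2650 to 2843 FPKM in C2C12(WT) to 14.6 to 15.5 FPKM in C2C12(Myod1-/-). Fewer cells of a type and less RNA per cell cannot be told apart in such bulk samples.

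Scn7a, the most abundant of the 74 members in the wild-type cells, was nearly lost in the knockout, and so was Scn4a, the gene of the adult muscle sodium channel. Kcnn3, Kcnf1 and Kcnn1 fell as well. Kcnn4, Kcnc2, Kcnab1 and Kcnk2 rose. Summed over the 74 members, the level was 72.1 to 72.7 FPKM in C2C12(WT), against 37.2 to 42.0 FPKM in C2C12(Myod1-/-), or 0.0229% to 0.0244% and 0.0128% to 0.0145% of all FPKM of a library. The sums of the genotypes did not overlap.

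Of the 74 members, 21 passed the filter and 53 did not. Among the 21, 12 fell, 4 rose and 5 did not pass the threshold, that is 57.1% lower and 19.0% higher. Of all 14045 genes tested, 33.3% fell and 27.9% rose. The median log2 fold change was -1.04 over the 21 members and -0.05 over all genes tested. The study's own thresholds ask for a change of at least 1 on the log2 scale in either direction and for a p, before adjustment, of 0.05 or less. By these, 11 members were lower and 3 higher, against 11.7% and 8.67% of all genes tested. In 13 members each C2C12(Myod1-/-) library was below each C2C12(WT) library and in 4 it was above, which held for 36.5% and 31.4% of all genes tested.

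The filter bears on these counts. Of the 21 members, 8 passed it only through their level in C2C12(WT), so that they had to be lower in the knockout, and 1 (Kcnab1) only through C2C12(Myod1-/-), so that it had to be higher. Among the 8 were Scn7a, Scn4a, Kcnf1, Kcnn3, Kcnab2 and Kcnmb4. In the other 12, whose means were at least 0.5 FPKM in both genotypes, 4 fell, 3 rose and 5 did not pass the threshold. These shares of 33.3% lower and 25% higher were near those of all 12786 genes with such means (31.6% lower and 27.6% higher), and the median log2 fold change of the 12 was -0.10. With no filter, 22 of the 74 members fell and 8 rose, against 18.4% and 14.8% of 28889 genes. The 3 members just inside the filter were Kcnab1, Kcnab2 and Kcnab3os, with means over the 6 libraries of 0.670, 0.718 and 0.798 FPKM, and the 3 just outside were Kcnj15, Kcnip4 and Kcnk7, with 0.473, 0.368 and 0.355 FPKM.

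**Figure D1:**
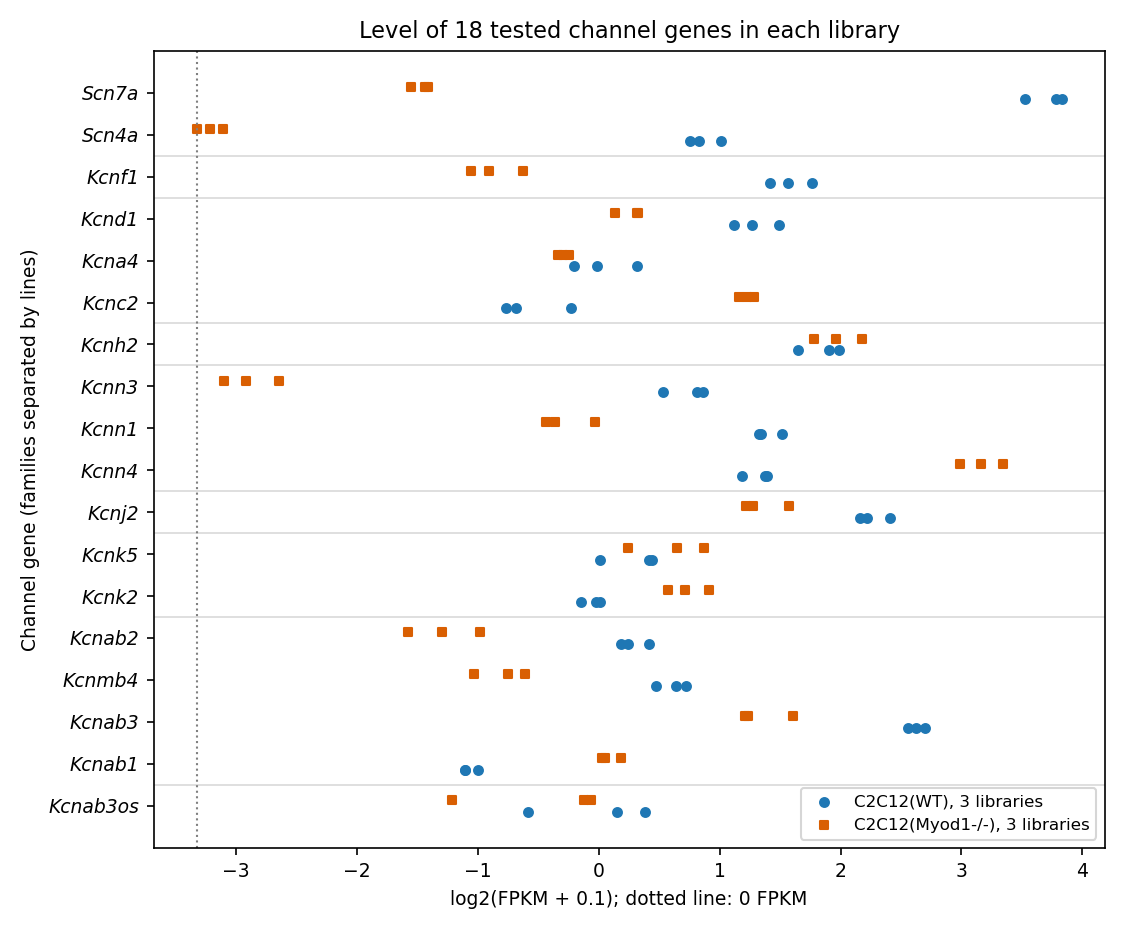
Level of 18 of the 21 tested channel genes in each library, as log2(FPKM + 0.1), with circles for the 3 C2C12(WT) libraries and squares for the 3 C2C12(Myod1-/-) libraries; grey lines separate the families and the dotted line is 0 FPKM. The squares of Scn4a and Kcnn3 lie at or close to the dotted line, and those of Kcnn4, Kcnc2, Kcnab1 and Kcnk2 lie to the right of all circles.

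Of the sodium channel alpha subunits, 3 were tested, all of which passed the filter only through C2C12(WT) and so had to be lower, and all fell. The sum of the 8 listed went from 17.6 to 21.0 FPKM in C2C12(WT) to 0.392 to 0.421 FPKM in C2C12(Myod1-/-). Scn7a, which encodes a sodium channel opened by extracellular sodium rather than by voltage in the mouse nervous system (Nax), was the most abundant of them. It was at 14.1, 11.4 and 13.7 FPKM in C2C12(WT) and at 0.241, 0.271 and 0.277 FPKM in C2C12(Myod1-/-), so that its mean was 49.7-fold higher in the wild type. The log2 fold change was -5.18 (SE 0.11, limma adjusted p = 2.4e-07).

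Scn4a, the gene of the adult muscle channel, was at 1.92, 1.68 and 1.59 FPKM in C2C12(WT) and at 0.00812, 0 and 0.0164 FPKM in C2C12(Myod1-/-). With no overlap of libraries, it fell (log2 fold change -4.08, SE 0.19, limma adjusted p = 6.33e-06).

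Scn7a held 64.9% to 69.2% of the summed FPKM of the alpha subunits in C2C12(WT), against 60.5% to 69.0% of the remainder in C2C12(Myod1-/-). Scn4a went from 8.06% to 9.55% down to between 0% and 3.89%, and Scn2a, a neuronal alpha subunit, from 1.26% to 1.31% up to 27.5% to 31.2%. The level of Scn2a itself was lower in the knockout, at 0.276, 0.222 and 0.258 FPKM in C2C12(WT), against 0.125, 0.108 and 0.128 FPKM in C2C12(Myod1-/-), so that its larger share came from the loss of the others. Scn2a and Scn7a belong to a group of 5 alpha subunit genes on chromosome 2 (Scn3a, Scn2a, Scn1a, Scn9a and Scn7a) that spans 1.33 Mb (GRCm38, chr2:65457118-66784914). Only Scn7a of this group passed the filter. Scn10a, a sodium channel gene of sensory neurons, lies on chromosome 9. It was at 0.274 to 0.382 FPKM in C2C12(WT) and listed at 0 in each knockout library.

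Of the beta subunit genes, Scn3b, the gene of the beta3 subunit, was under the filter, with 0.136 to 0.196 FPKM in C2C12(WT), against 0, 0.0219 and 0 FPKM in C2C12(Myod1-/-).

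**Figure D2:**
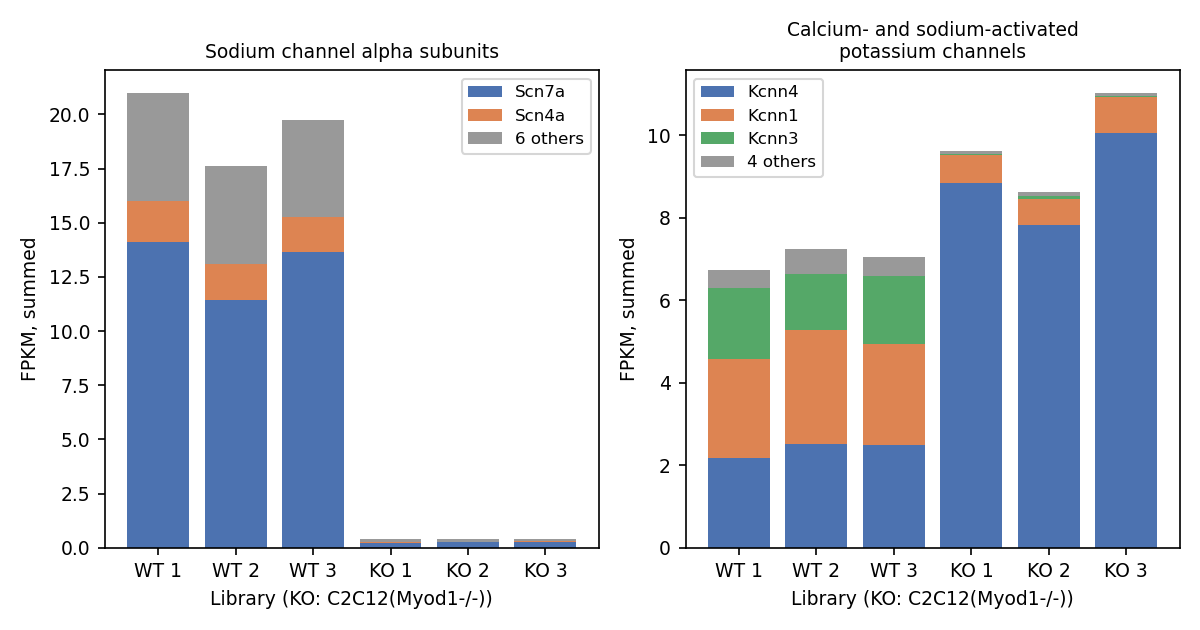
Summed FPKM of the 8 sodium channel alpha subunit genes (left) and of 7 potassium channel genes (right) in each of the 6 libraries. The 7 were grouped by symbol alone (Kcnma, Kcnn, Kcnt and Kcnu) under the heading of calcium- and sodium-activated channels. Scn7a and Scn4a on the left and Kcnn4, Kcnn1 and Kcnn3 on the right are in colour, and the other genes are in grey. The left sums drop from 17.6 to 21.0 FPKM in C2C12(WT) to 0.392 to 0.421 FPKM in C2C12(Myod1-/-), whereas the right sums are larger in C2C12(Myod1-/-) and consist mostly of Kcnn4.

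Kcnf1 encodes Kv5.1, a subunit that forms no channel alone and modifies Kv2 channels. It was at 2.57, 3.30 and 2.85 FPKM in C2C12(WT) and at 0.433, 0.381 and 0.548 FPKM in C2C12(Myod1-/-), and it fell (log2 fold change -2.44, SE 0.16, limma adjusted p = 2.86e-05). Every knockout library was below every wild-type library, and none was at 0. Kcnq1, a Kv7 gene known from heart and inner ear, was under the filter, at 0.0298 to 0.0600 FPKM in C2C12(WT) and at 0 in all C2C12(Myod1-/-) libraries.

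The Kv1 to Kv4 genes moved in both directions, and their sum overlapped between the genotypes (4.01 to 4.59 FPKM in C2C12(WT), against 3.93 to 4.22 FPKM in C2C12(Myod1-/-)). Kcnd1, the gene of the A-type channel Kv4.1, was at 2.71, 2.31 and 2.07 FPKM in C2C12(WT) and at 1.15, 1.14 and 0.995 FPKM in C2C12(Myod1-/-). It fell, with a log2 fold change of -1.04 (SE 0.13, limma adjusted p = 6.05e-04). Kcnc2, the gene of Kv3.2, which lets neurons fire at high rates, was at 0.488, 0.522 and 0.753 FPKM in C2C12(WT) and at 2.13, 2.33 and 2.24 FPKM in C2C12(Myod1-/-). It rose, with a log2 fold change of 1.78 (SE 0.17, limma adjusted p = 1.53e-04). All C2C12(Myod1-/-) libraries were above the C2C12(WT) libraries for Kcnc2, and all were below them for Kcnd1. Kcna4, which encodes Kv1.4, had means of 0.936 and 0.716 FPKM and did not pass the threshold (log2 fold change -0.33, limma adjusted p = 0.139), although its libraries did not overlap.

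Of the 5 ether-a-go-go type genes only Kcnh2 passed the filter. It encodes the ERG channel that repolarizes heart cells, and it had means of 3.51 FPKM in C2C12(WT), against 3.85 FPKM in C2C12(Myod1-/-) with overlapping libraries (log2 fold change 0.13, SE 0.14, limma adjusted p = 0.448). Kcnh1, the gene of Kv10.1, which is known to be expressed in brain, in fusing human myoblasts and in many tumours, was under the filter. It was at 0.0169, 0.0208 and 0.0149 FPKM in C2C12(WT) and at 0.189, 0.175 and 0.134 FPKM in C2C12(Myod1-/-), that is higher in each knockout library.

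Among the channels opened by intracellular calcium or sodium, Kcnn1 and Kcnn3 fell and Kcnn4 rose. Kcnn1 and Kcnn3 encode the small-conductance channels SK1 and SK3, of which SK3 is known from immature and denervated muscle. Kcnn4 encodes the intermediate-conductance channel KCa3.1 of lymphocytes, erythrocytes and many proliferating cells. Kcnn3 was at 1.71, 1.35 and 1.66 FPKM in C2C12(WT) and at 0.0328, 0.0600 and 0.0166 FPKM in C2C12(Myod1-/-) (log2 fold change -3.62, SE 0.21, limma adjusted p = 1.72e-05). Kcnn1 was at 2.41, 2.76 and 2.44 FPKM in C2C12(WT) and at 0.679, 0.638 and 0.877 FPKM in C2C12(Myod1-/-) (log2 fold change -1.67, SE 0.14, limma adjusted p = 9.42e-05). The libraries of the genotypes lay apart for both genes, with Kcnn1 kept at a higher level than Kcnn3 in the knockout.

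Kcnn4 was at 2.17, 2.52 and 2.50 FPKM in C2C12(WT) and at 8.84, 7.83 and 10.1 FPKM in C2C12(Myod1-/-), a mean that was 3.71-fold higher in the knockout (log2 fold change 1.85, SE 0.11, limma adjusted p = 1.95e-05). It had the highest level of all members in C2C12(Myod1-/-). Its share of the family's summed FPKM went from 32.2% to 35.5% in C2C12(WT) to 90.7% to 91.9% in C2C12(Myod1-/-), and the family's sum was larger in the knockout, at 8.63 to 11.0 FPKM against 6.74 to 7.25 FPKM. Kcnn4 is also used in leukocytes. The summed level of 7 leukocyte markers, listed under 8 gene identifiers, was 2.18 to 2.64 FPKM in C2C12(WT), against 1.50 to 2.02 FPKM in C2C12(Myod1-/-). Most of that sum was Lyz2, with means of 1.77 and 1.19 FPKM. Ptprc was at most at 0.0218 FPKM in any library. The T cell marker Cd3e was listed at 0 in each C2C12(WT) library and was at 0.0735, 0.0146 and 0.102 FPKM in C2C12(Myod1-/-). The part of such cells in the rise of Kcnn4 was not tested.

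The sequences upstream of called members are shown because Myod1 is known to bind E-boxes, short palindromic sites of which CAGCTG is 1 form. The 250 bases before each RefSeq start (GRCm38.p6) were searched for CAGCTG, which reads the same on both strands, and no other motif was searched. It occurred in 13.0% of all 32851 such windows. Of the 16 members that rose or fell, 12 had an entry. A match was present for 3 of 8 lower genes (Kcnn1, Scn7a and Kcnj2) and for 2 of 4 higher genes (Kcnc2 and Kcnk2). Counted by start, 10 of 23 windows of these 12 genes held one (43.5%). Several of these overlap at neighbouring starts of the same gene, and a site of Kcnc2 is counted more than once. The windows are thus not independent, and the 43.5% is not a measure of excess over the 13.0%. The 13.0% is a share of windows, and no share of genes with a match was computed over all genes. A match is a run of letters and was not measured as a bound site. Windows with a match are printed for members with values for each library, 5′ to 3′ on the gene's strand, with the match in capitals. For Kcnc2 only 1 such window is shown. Windows without a match are not shown.
Kcnn1, chr8:70863259-70863508, minus strand: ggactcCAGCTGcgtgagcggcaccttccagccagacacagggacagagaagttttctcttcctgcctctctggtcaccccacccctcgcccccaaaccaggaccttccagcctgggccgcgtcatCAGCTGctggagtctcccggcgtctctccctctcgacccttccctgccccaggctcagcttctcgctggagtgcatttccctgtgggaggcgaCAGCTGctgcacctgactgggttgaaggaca
Kcnn1, chr8:70857009-70857258, minus strand: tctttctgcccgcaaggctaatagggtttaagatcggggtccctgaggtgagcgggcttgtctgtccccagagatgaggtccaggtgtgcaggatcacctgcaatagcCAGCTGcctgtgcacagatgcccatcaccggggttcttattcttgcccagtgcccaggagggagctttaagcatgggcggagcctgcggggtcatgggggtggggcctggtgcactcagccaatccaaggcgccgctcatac
Scn7a, chr2:66784911-66785160, minus strand: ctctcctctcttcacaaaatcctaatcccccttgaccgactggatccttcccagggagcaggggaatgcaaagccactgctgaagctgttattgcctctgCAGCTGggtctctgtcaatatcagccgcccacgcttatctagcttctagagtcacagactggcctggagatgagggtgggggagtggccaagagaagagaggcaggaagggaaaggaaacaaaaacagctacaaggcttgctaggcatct
Kcnc2, chr10:112269767-112270016, plus strand: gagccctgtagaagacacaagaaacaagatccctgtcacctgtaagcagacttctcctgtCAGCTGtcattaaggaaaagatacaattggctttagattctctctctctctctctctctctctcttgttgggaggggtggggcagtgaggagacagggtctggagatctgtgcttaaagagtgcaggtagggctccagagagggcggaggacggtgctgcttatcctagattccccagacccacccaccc
The first Kcnn1 window held 3 matches, whose first bases lie 244, 124 and 31 bases before the start, and only 39 windows (0.119%) held at least 3. The match lies 150 bases before the start in Scn7a and 190 bases before it in the Kcnc2 window shown. In the other Kcnc2 windows, which overlap each other, the match is the same site, which lies 10, 12 and 162 bases before the respective starts.

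Inward rectifiers and leak channels set the resting potential. Kcnj2 was the single tested gene among 11 inward rectifiers, and it fell from a mean of 4.71 FPKM (SD 0.431, n = 3) to 2.48 FPKM (SD 0.349, n = 3), with a log2 fold change of -0.91 (SE 0.12, limma adjusted p = 8.15e-04). Kcnj16, its neighbour 38.2 kb away on chromosome 11, was under the filter, with 0.0698 to 0.173 FPKM in C2C12(WT), against 0.0145 to 0.0733 FPKM in C2C12(Myod1-/-), which overlap. Kcnj15, the gene of Kir4.2, was the member just under the filter, at 0.313, 0.273 and 0.236 FPKM in C2C12(WT), against 0.623, 0.785 and 0.608 FPKM in C2C12(Myod1-/-), higher in all knockout libraries.

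Of the 10 leak channel genes, 2 were tested. Kcnk2 encodes TREK-1, a channel that responds to stretch, heat and lipids. Its mean rose from 0.867 FPKM (SD 0.0537, n = 3) to 1.57 FPKM (SD 0.198, n = 3), with a log2 fold change of 0.79 (SE 0.13, limma adjusted p = 2.25e-03). The annotation places the pseudogene Pdcd5-ps within the span of Kcnk2 on the same strand, with 381 shared bases and means of 24.0 and 22.2 FPKM. Whether these bases touch an exon of Kcnk2 was not examined, so that it is not known whether the level of Kcnk2 holds some of its reads. Kcnk5, the gene of the acid-sensitive channel TASK-2, had means of 1.13 and 1.43 FPKM and did not pass the threshold (log2 fold change 0.30, SE 0.21, limma adjusted p = 0.254). Under the filter, Kcnk13 and Kcnk4 were lower in each knockout library and Kcnk7 was higher. Kcnk13, the gene of THIK-1, was at 0.395 to 0.481 FPKM in C2C12(WT) and at 0, 0.0192 and 0.0185 FPKM in C2C12(Myod1-/-).

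Of 14 auxiliary subunit genes 4 were tested, of which 3 fell and 1 rose, against 33.3% lower and 27.9% higher of all genes tested. For 3 of the 4 the filter set the direction: Kcnab2 and Kcnmb4 passed it only through C2C12(WT) and Kcnab1 only through C2C12(Myod1-/-). Kcnab1, Kcnab2 and Kcnab3 encode the cytosolic beta subunits of Kv1 channels. Kcnab3 was at 5.80, 6.39 and 6.07 FPKM in C2C12(WT) and at 2.21, 2.26 and 2.95 FPKM in C2C12(Myod1-/-) (log2 fold change -1.28, SE 0.12, limma adjusted p = 1.66e-04). Kcnab2 was at 1.23, 1.04 and 1.09 FPKM in C2C12(WT) and at 0.307, 0.407 and 0.235 FPKM in C2C12(Myod1-/-) (log2 fold change -1.57, SE 0.20, limma adjusted p = 6.38e-04). The opposite was seen for Kcnab1, at 0.366, 0.400 and 0.364 FPKM in C2C12(WT), against 0.921, 1.03 and 0.936 FPKM in C2C12(Myod1-/-) (log2 fold change 1.16, SE 0.14, limma adjusted p = 5.28e-04). No library of 1 genotype reached into the range of the other for any of these 3 genes. In the transcript table, ENSMUST00000030768 of Kcnab2 was at 1.47, 0.898 and 1.26 FPKM in C2C12(WT) and listed at 0 in all C2C12(Myod1-/-) libraries. ENSMUST00000161404 of Kcnab1 was at 0, 0 and 0.0192 FPKM in C2C12(WT) and at 0.852, 0.383 and 0.565 FPKM in C2C12(Myod1-/-). Other transcripts differed from these. The most abundant of Kcnab1, ENSMUST00000049230, overlapped, at 0.831, 0.889 and 0.812 FPKM in C2C12(WT), against 0.783, 1.60 and 1.21 FPKM in C2C12(Myod1-/-). ENSMUST00000160884 of Kcnab2 had a higher mean in the knockout (0.0224 and 0.252 FPKM), with overlapping libraries. Such transcript values are estimates that divide a gene's reads, and they varied between libraries of a genotype.

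Kcnmb4 encodes the beta4 subunit of the large-conductance calcium-activated (BK) channel, whose pore gene Kcnma1 was at most at 0.0565 FPKM in any library. Kcnmb4 was at 1.55, 1.29 and 1.46 FPKM in C2C12(WT) and at 0.494, 0.557 and 0.390 FPKM in C2C12(Myod1-/-), with no overlap (log2 fold change -1.41, SE 0.16, limma adjusted p = 4.04e-04). The RNA of the auxiliary subunit was thus above that of the pore in every library. Kcnmb1, the BK subunit of smooth muscle, was under the filter at 0.131 to 0.207 FPKM in C2C12(WT) and at 0 in all C2C12(Myod1-/-) libraries. The smooth muscle markers (4 of 4 listed) summed to 58.7 to 60.5 FPKM in C2C12(WT), against 37.8 to 43.5 FPKM in C2C12(Myod1-/-). Most of that sum was Smtn, with means of 50.9 and 41.3 FPKM. All 3 tested markers fell, against 33.3% of all genes tested. Of the 3, 2 (Cnn1 and Lmod1) passed the filter only through C2C12(WT) and so had to be lower. The part of such cells in the difference of Kcnmb1 was not tested.

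Several members overlap other genes, and the kit named in the methods does not mark the strand. Overlaps are of whole gene spans, introns included, and the overlap of exons was not computed. The spans of Kcnab3 and its antisense RNA Kcnab3os share 2298 bases on opposite strands, whereas the listed Kcnab3os transcript has 566 bases. Where exons of both genes overlap, their reads cannot be told apart. Kcnab3os had means of 0.927 and 0.669 FPKM with overlapping libraries (log2 fold change -0.45, SE 0.40, limma adjusted p = 0.364). Kcnab1 overlaps the antisense gene A730090N16Rik, whose mean was 0.433 FPKM in C2C12(WT), against 1.42 FPKM in C2C12(Myod1-/-). It also overlaps A330015K06Rik on the other strand (means of 0.0214 and 0.0798 FPKM) and Gm38048 on the same strand (means of 0.0390 and 0.249 FPKM). Kcnab2 shares 1166 bases with Nphp4 on the other strand, whose means were 1.23 and 0.485 FPKM. Each of these neighbours differed in the same direction as the channel gene that it overlaps. The antisense RNAs Kcnmb4os1 and Kcnmb4os2, which overlap Kcnmb4, had means of at most 0.0883 FPKM in either genotype.

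**Figure D3:**
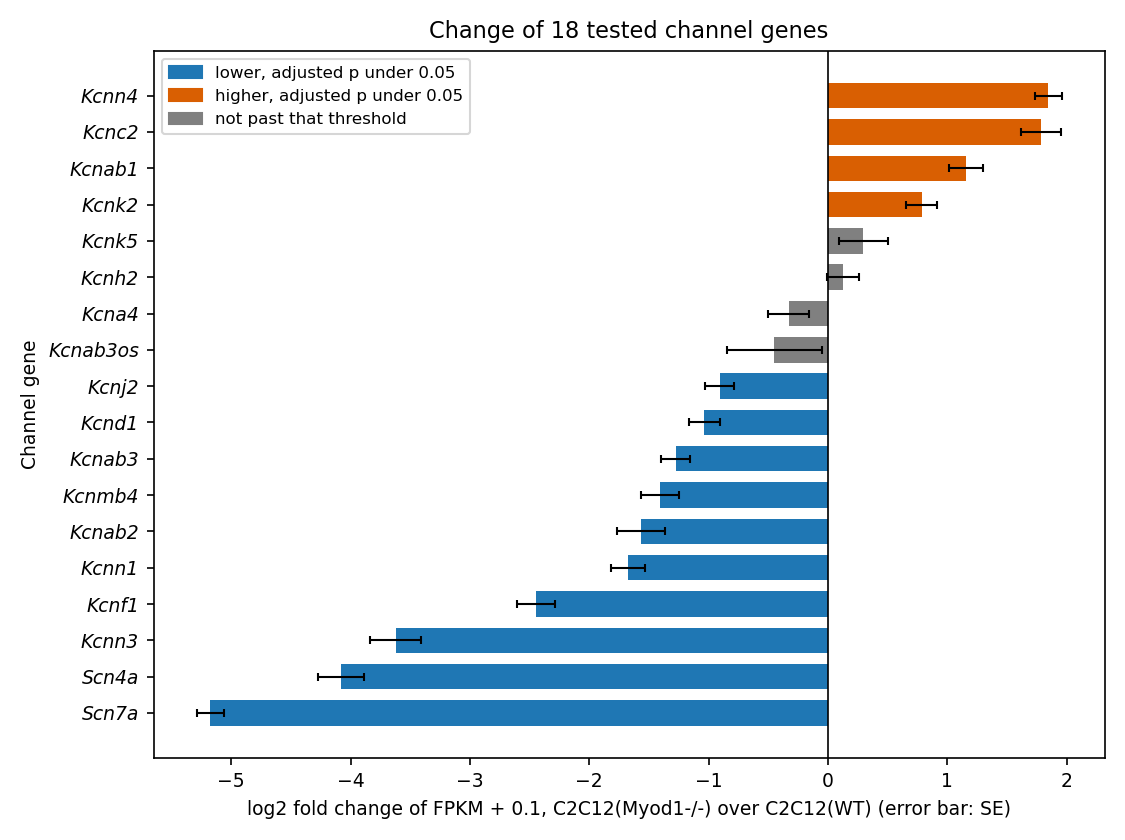
Log2 fold change of FPKM + 0.1, C2C12(Myod1-/-) over C2C12(WT), of 18 of the 21 tested channel genes with the standard error from limma (n = 3 libraries per genotype). Bars for 10 genes point to lower levels past an adjusted p of 0.05, from -0.91 (Kcnj2) to -5.18 (Scn7a), and bars for 4 genes to higher levels, from 0.79 (Kcnk2) to 1.85 (Kcnn4).

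The 53 members under the filter were scarce in both genotypes. In 30 of them no library reached 0.1 FPKM, and 11 were above 0 in a single library. In 12 every C2C12(Myod1-/-) library was below every C2C12(WT) library and in 4 every one was above, that is 22.6% and 7.55%, against 11.8% and 9.09% of all 14844 genes under the filter. Of these 16, 13 had a mean of at least 0.1 FPKM in the higher genotype. The lower ones included Scn10a, Kcnmb1, Scn2a, Scn3b, Kcnmb2, Kcnt2, Kcnk13 and Kcnk4, and the higher ones were Kcnh1, Kcnip2, Kcnj15 and Kcnk7. Kcnt2, the gene of a sodium-activated channel, was at 0.366 to 0.476 FPKM in C2C12(WT), against 0.0126 to 0.0758 FPKM in C2C12(Myod1-/-). Kcnip2, whose product KChIP2 binds Kv4 channels, was at 0.0134 to 0.0471 FPKM in C2C12(WT), against 0.104 to 0.169 FPKM in C2C12(Myod1-/-). At such levels a value rests on few reads. In the fit with no filter, 10 of the 53 were lower and 4 higher at an adjusted p under 0.05 in limma. The 4 were Kcnh1, Kcnip2, Kcnj15 and Kcnk7. Of all 28889 genes in that fit, which include those past the filter, 18.4% were lower and 14.8% higher. The shares among genes under the filter alone were not computed in that fit, so that these are not a matched base for the 53.

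**Figure D4:**
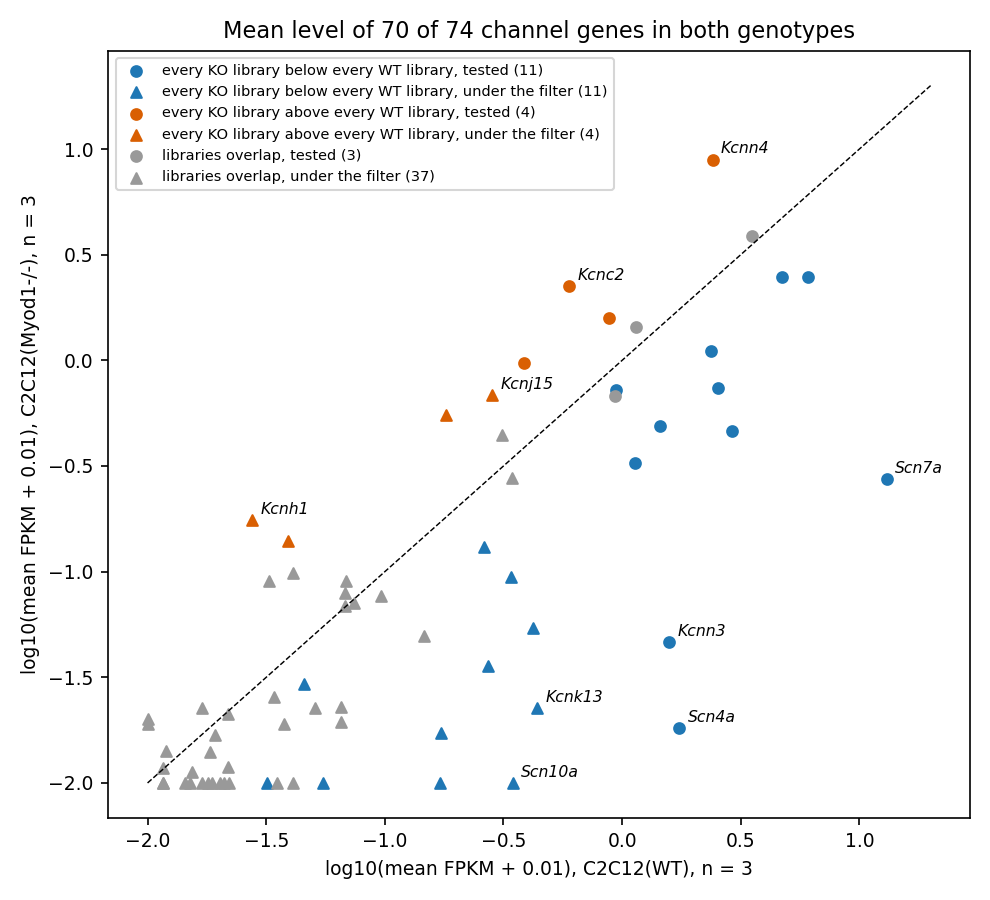
Mean FPKM of 70 of the 74 channel genes in C2C12(WT) (x axis) and C2C12(Myod1-/-) (y axis), n = 3 libraries each, as log10(FPKM + 0.01); circles passed the filter, triangles did not, and the dashed line marks equal levels. Of the tested genes drawn, 11 lie below the line and 4 above it without overlap of libraries, and of those under the filter 11 and 4.

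Genes that work with these channels also moved, in both directions, and their counts stand beside the 33.3% lower and 27.9% higher of all genes tested. The sodium, potassium pump restores the gradients that the channels draw on. Of its 13 subunits and regulators 11 were listed and 8 tested, of which 5 fell and 2 rose (62.5% and 25%). Of the 8, 2 passed the filter only through C2C12(WT) and so had to be lower. The beta subunit gene Atp1b1 was at 11.2, 11.4 and 11.6 FPKM in C2C12(WT), against 5.50, 5.17 and 4.09 FPKM in C2C12(Myod1-/-), and fell (log2 fold change -1.21, SE 0.11, limma adjusted p = 1.45e-04). Fxyd5, a regulator of the pump also known as dysadherin for its effect on cell adhesion, was at 2.25, 2.14 and 2.26 FPKM in C2C12(WT), against 6.32, 5.98 and 6.50 FPKM in C2C12(Myod1-/-), and rose (log2 fold change 1.46, SE 0.07, limma adjusted p = 6.33e-06). The genotypes did not overlap for either gene. Kcnc2, which rose, is known from neurons. Of 10 neuron markers 8 were listed, with a summed level of 3.92 to 4.33 FPKM in C2C12(WT), against 0.800 to 0.914 FPKM in C2C12(Myod1-/-). Most of that sum was Tubb3, with means of 2.40 and 0.0727 FPKM, Syt1, with 0.834 and 0.226 FPKM, and Map2, with 0.605 and 0.476 FPKM, of which Tubb3 and Syt1 fell. These 3 passed the filter only through C2C12(WT) and so had to be lower. Rbfox3 was at most at 0.0210 FPKM in any library. Snap25 was at most at 0.0572 FPKM, with means of 0.00572 and 0.0359 FPKM and overlapping libraries. The part of such cells in the rise of Kcnc2 was not tested.

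Voltage-gated calcium channel genes, which couple excitation to contraction in muscle, fell or did not pass the threshold: 4 of the 7 tested fell and none rose (57.1% and 0%, against 33.3% and 27.9% of all genes tested), out of 19 listed of 20. Of the 7, 2 (Cacna1s and Cacng6) passed the filter only through C2C12(WT) and so had to be lower. Cacna1s, the pore of the muscle L-type channel, had means of 6.47 and 0.00518 FPKM (log2 fold change -5.96), and its gamma subunit gene Cacng1 had means of 54.2 and 0.999 FPKM (log2 fold change -5.63). The beta subunit gene Cacnb1 went from 13.3 to 3.71 FPKM (log2 fold change -1.81).

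Of 12 anchors and cytosolic partners of sodium channels, 11 were listed and 8 tested, of which 5 fell and 3 rose (62.5% and 37.5%, against 33.3% and 27.9% of all genes tested). Of the 8, 1 (Sntb1) passed the filter only through C2C12(WT). The 5 became 3 or 4 when single libraries were left out, and Ank2 lay close to the threshold (limma adjusted p = 0.0322). The falls with the largest size were those of the syntrophin gene Sntb1, with means of 7.73 and 0.143 FPKM (log2 fold change -5.06), and of Fgf11, a member of the intracellular fibroblast growth factor group that binds sodium channels, with means of 9.33 and 1.39 FPKM (log2 fold change -2.66). Sntb2, another syntrophin gene, had means of 13.1 and 19.5 FPKM and rose (log2 fold change 0.58). Gpd1l, a relative of glycerol-3-phosphate dehydrogenase, had means of 10.5 and 5.39 FPKM and fell (log2 fold change -0.95).

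Of 19 other potassium channel partners, 9 were tested, of which 2 fell and 4 rose (22.2% and 44.4%, against 33.3% and 27.9% of all genes tested). Of the 9, 2 (Kcnrg and Dlg2) passed the filter only through C2C12(Myod1-/-) and so had to be higher. Calm3 and Calm2, genes of calmodulin, the calcium sensor of the SK channels, had means of 166 and 62.4 FPKM (log2 fold change -1.42) and of 183 and 155 FPKM (log2 fold change -0.24), and both fell. The scaffold gene Dlg2 was listed under 2 gene identifiers, of which the tested one had means of 0.308 and 0.999 FPKM and rose (log2 fold change 1.44). The 4 that rose became 2 without C2C12(Myod1-/-) replicate 1 or replicate 2. Among 13 other pore-forming channels of resting and pacemaker current, 2 were tested and both fell, Clcn2 with means of 2.58 and 1.84 FPKM (log2 fold change -0.47) and Trpm4 with means of 4.79 and 4.03 FPKM (log2 fold change -0.24). The count of 2 became 1 without C2C12(Myod1-/-) replicate 1 or replicate 2.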

How the data were processed

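RNA-seq libraries of 2 genotypes, 3 per genotype, were analysed. StringTie was used by the authors to compute FPKM, which were taken as deposited for 28892 genes and 92513 transcripts. Per the methods and labels, rRNA was removed from total RNA, reads were handled with bcl2fastq, fastp and FastQC and aligned to GRCm38 with HISAT2 or TopHat. Versions and annotation are not given in the sources used here. Because FPKM are relative to the library, a change in abundant genes moves all others, and the number of reads is unknown. The gene table listed no gene at 0 in all libraries.

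Columns were assigned to samples through the supplementary table of the study that prints the same values under genotype headings, in which 3200 of 3200 genes matched in all 6 libraries (relative tolerance 0.001). No library held the same values as another. R 4.3.3 with limma 3.58.1 and Python 3.11.15 with numpy 2.4.6, pandas 2.3.3 and matplotlib 3.10.9 were used. Values were fitted as log2(FPKM + 0.1) by genotype alone, with eBayes and trend, after leaving out genes with a mean under 0.5 FPKM. The fit was tested on simulated data. Alternatives were other pseudocounts, filters and scalings, no trend, a replicate block, and leaving out each library.

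The members and lists were chosen with earlier results of these data known. Values of all libraries are given for members past an adjusted p of 0.05 and an absolute log2 fold change of 1, and for a few others chosen after their values were seen (Scn2a, Kcnh1 and Kcnj15). Members under the filter are named where the libraries of the genotypes did not overlap and the higher mean was at least 0.1 FPKM. Others, also chosen after their values were seen, include a neighbour (Kcnj16), a pore partner (Kcnma1) and a Kv7 gene (Kcnq1). From each related list, called genes with the 2 highest means and the 2 largest fold changes are named. Genes and overlaps were located with the positions deposited beside the gene values. The transcript lengths used to read the spacing of low values came from GENCODE vM21. The glia, endothelium and epithelium markers summed to at most 1.19, 0.207 and 0.189 FPKM in any library. Rule matches left out, and some members and listed genes that are included in the counts and sums, are not reported here, and the naming rule was applied to the rest.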

Additional observations from a re-analysis of the deposited data

How the results depend on the processing

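All 308 values of the 21 tested members under the 15 alternatives kept their direction and their side of the threshold. At a mean of at least 1 FPKM, 14 members could be fitted. Without a filter the members that fell were 22 (19 at the study's thresholds) and those that rose 8 (6 at the study's thresholds). At a mean of at least 1 FPKM the members lower at the study's thresholds were 7, since fewer genes were tested, and the potassium channel partners that rose were 2. The sodium channel anchors that fell were 3 with median ratio scaling, with the replicate block and without mitochondrially encoded genes in the sum, and 3 to 4 with single libraries left out. The other pore-forming channels that fell were 1 with quantile normalization and with the replicate block, and 1 to 2 with single libraries left out. The potassium channel partners that rose were 2 to 5 with single libraries left out. The cause of these changes was not tested.

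Replicate numbers did not pair the samples: deviations from the genotype mean of libraries with the same number correlated at -0.10, -0.14 and -0.03 over genes. The replicate block changed no call of a member. The median log2 fold change of all genes was -0.05 as deposited, 0.03 with quantile normalization and 0.00 with median ratio scaling. The values rest on 3 libraries per genotype and 1 knockout clone, the number of reads is unknown, and mitochondrially encoded genes took 7.32% to 8.49% of all FPKM in C2C12(WT), against 5.07% to 5.25% in C2C12(Myod1-/-).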
